A study of Homo sapiens with 2 samples.

Results

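The genes described here encode CTCF and the cohesin complex with its loading and release factors. They were CTCF, RAD21, SMC1A, SMC3, STAG1, STAG2, NIPBL, MAU2, WAPL and PDS5A, chosen by name, 10 of 19974 protein-coding genes on chromosomes 1 to 22 and X. The data came from PANC-1, a long-established cell line from a human pancreatic ductal carcinoma. They consisted of 1 ChIPmentation peak list from cells given the solvent DMSO and 1 from cells given inflachromene, a small molecule known to bind HMGB1 and HMGB2. ChIPmentation is chromatin immunoprecipitation in which a transposase adds the sequencing adapters on the captured chromatin. Both samples were crosslinked with 15 mM EGS for 30 min and then with 1% formaldehyde for 10 min. The sources used here do not name the protein that was precipitated, the inflachromene dose or the length of treatment, so a peak below is a place where a peak was called and not a known protein's site.

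Cohesin is a ring built from the ATPases SMC1A and SMC3 and the kleisin RAD21, to which STAG1 or STAG2 binds. NIPBL with MAU2 loads the ring onto DNA and drives the extrusion of chromatin loops, and WAPL with PDS5A or PDS5B releases it. CTCF, a zinc finger protein bound to an oriented DNA motif, halts extruding cohesin and so sets the borders of loops and domains. The same ring holds sister chromatids together from replication to anaphase, which dividing cells such as this line require.

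All 10 genes had a peak at a gene end in both libraries. An end peak is one whose summit lay within 1000 bp of either annotated end of the gene. Of all coding genes, 45.7% had such a peak in DMSO, 38.0% in inflachromene and 36.3% in both. The members were chosen by name with earlier results of these data known, so their count is a description. Among the members, the number of fragments over the summit, called the pileup, ran from 10 at MAU2 to 65 at STAG1 in DMSO. It ran from 9 to 49 at the same genes in inflachromene.

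The stretches before the starts of 5 genes are shown because their peaks span the range of the set, or because their letters are uncommon among promoters. STAG1 had the highest pileup, MAU2 the lowest and NIPBL the highest ratio of inflachromene to DMSO pileup. CTCF, PDS5A and NIPBL share a short motif. Each run is the 250 bases just before the RefSeq start, 5′ to 3′ along the gene, from the RefSeq promoter table of GRCh38.p14. Capitals mark matches, on either strand, to the searched motifs CCGGAAG and CGGAAG (ETS family), GGGGCGGGG and GGGCGG (SP and KLF family), CCAAT (NF-Y), TTGGCGC (E2F), AGGNGGC (a piece of the CTCF motif) or the CTCF core consensus. CGGAAG also matches within CCGGAAG, and GGGCGG within GGGGCGGGG.
STAG1 (chr3:136752379-136752628, - strand): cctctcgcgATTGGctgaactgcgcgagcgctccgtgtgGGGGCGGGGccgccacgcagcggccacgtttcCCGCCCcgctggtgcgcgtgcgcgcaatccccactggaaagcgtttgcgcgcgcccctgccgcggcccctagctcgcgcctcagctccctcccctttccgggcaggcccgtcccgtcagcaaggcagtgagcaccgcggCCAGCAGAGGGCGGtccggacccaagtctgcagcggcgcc
CTCF (chr16:67562276-67562525, + strand): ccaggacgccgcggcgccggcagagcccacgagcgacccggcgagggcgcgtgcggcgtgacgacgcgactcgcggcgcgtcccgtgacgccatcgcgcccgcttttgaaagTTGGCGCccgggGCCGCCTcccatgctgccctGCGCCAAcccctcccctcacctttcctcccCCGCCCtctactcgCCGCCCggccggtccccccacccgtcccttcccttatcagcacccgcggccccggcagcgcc
NIPBL (chr5:36876519-36876768, + strand): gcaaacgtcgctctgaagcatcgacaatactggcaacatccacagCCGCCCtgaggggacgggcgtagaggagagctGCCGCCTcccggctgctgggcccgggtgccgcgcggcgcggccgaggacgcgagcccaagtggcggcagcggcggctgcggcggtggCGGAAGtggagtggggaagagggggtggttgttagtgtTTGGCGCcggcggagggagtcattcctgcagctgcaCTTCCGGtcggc
PDS5A (chr4:39977912-39978161, - strand): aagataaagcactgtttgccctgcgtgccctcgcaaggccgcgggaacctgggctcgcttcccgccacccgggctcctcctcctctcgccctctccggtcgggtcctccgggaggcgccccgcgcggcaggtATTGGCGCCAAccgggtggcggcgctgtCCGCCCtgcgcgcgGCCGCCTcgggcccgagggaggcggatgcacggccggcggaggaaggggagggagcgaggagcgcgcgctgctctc
MAU2 (chr19:19320579-19320828, + strand): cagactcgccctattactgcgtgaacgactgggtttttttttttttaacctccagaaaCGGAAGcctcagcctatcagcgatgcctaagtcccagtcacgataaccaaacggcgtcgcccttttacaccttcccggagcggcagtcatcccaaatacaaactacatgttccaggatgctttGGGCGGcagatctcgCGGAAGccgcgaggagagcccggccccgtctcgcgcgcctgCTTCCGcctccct

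Counted from the first printed base, the DMSO summit fell on base 105 in the STAG1 run, and the inflachromene summit on base 15. At CTCF both summits were at the far edge of the run, on bases 3 and 4. At NIPBL they were on bases 192 and 224, near the start of the gene. The PDS5A summit fell on base 186 in DMSO and, in inflachromene, 97 bp inside the gene. The MAU2 summit was on base 70 in DMSO and 327 bp before the start in inflachromene, outside the run.

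The STAG1 promoter held the CTCF core consensus, the degenerate motif that the product of CTCF itself recognises. It was searched by its consensus after this promoter had been read, so its presence at STAG1 is a description. The match covers bases 211 to 222 of the run and overlaps a GGGCGG match at bases 219 to 224, and a second match lies 18 to 29 bases after the start. Of 13793 coding-gene promoters of the same 300 bases, 73 (0.529%) held the consensus, and of 5485 with a peak near the start in both libraries 34 (0.62%) did. It was in 1 of the 9 members with a promoter entry. A narrower CTCF motif of 12 letters, listed earlier, was in none of the 9, in 0.37% of all promoters and in 0.456% of those with a peak in both libraries.

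TTGGCGC, a form of the E2F motif, was in 3 of the 9 promoters, against 4.21% of all promoters and 5.94% of those with a peak near the start in both libraries. CTCF held it at bases 113 to 119 and, on the other strand, at 145 to 151. PDS5A held it on both strands in overlapping copies, at bases 134 to 140 and 137 to 143, and NIPBL at bases 203 to 209. GGGCGG was in all 9, against 58.5% of all promoters and 76.2% of those with a peak in both libraries. CCAAT was in 4 (STAG1, PDS5A, WAPL and STAG2), against 37.1% of all promoters and 44.4% of those with a peak in both libraries. CGGAAG was in 3 (NIPBL, MAU2 and SMC1A), against 26.1% and 40.9%. AGGNGGC was in 5, against 41.9% and 47.7%. CCGGAAG was in 2 (NIPBL and SMC1A), against 14.6% and 24.5%, and GGGGCGGGG in 2 (STAG1 and SMC1A), against 22.3% and 30.6%. None of the 9 held TATAAA (10.0% of all promoters and 4.52% of those with a peak in both libraries), TGACGT (9.93% and 14.2%) or CACGTG (8.95% and 11.5%). Nor did any hold AAGATGG (6.69% and 9.34%), GCATGCGC (4.45% and 6.87%) or TGACGTCA (2.7% and 4.07%). These stand for the TATA box, CREB and ATF, the E box, YY1, NRF1 and the full CREB site. None held the longer word searched for NRF1 (1.84% and 2.92%), YY1 (1.44% and 2.64%) or ZNF143 (0.406% and 0.766%) either. Each of these absent motifs was searched as a fixed run of letters, and variant forms were not counted. Their absence therefore does not show that the promoters lack sites for these factors. The 9 promoters had a median G and C content of 67.3% (56 to 76.3%), against 62.7% over all promoters and 66% over those with a peak in both libraries. RAD21 has no entry in the table.

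Every strongest member end peak lay at the start of its gene. At STAG2 in inflachromene, a peak just beyond the window, described below, held more fragments, 33 against 29. The promoter table gives a strand for 9 of the 10 genes; RAD21, on chromosome 8, had its peak at the upper end of the gene, where its transcription is known to begin. None of the 10 had a peak at the 3′ end in either library. For the 15813 coding genes with a known strand, 47.3% had a DMSO peak at the start and 3.50% at the 3′ end; in inflachromene these shares were 39.7% and 2.55%. The strongest DMSO summits of the members lay outside the gene in every case, from 42 bp before the start at WAPL to 318 bp at SMC3. In inflachromene 9 of 10 strongest end-peak summits did, from 27 bp at NIPBL to 327 bp at MAU2, and PDS5A was the exception. Over all genes with a DMSO peak at the start, 77.1% of strongest summits lay before it. The median absolute distance of all these summits, on either side of the start, was 105 bp. In inflachromene 78.1% of strongest summits lay before the start, and the median absolute distance was 109 bp.

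**Figure D1:**
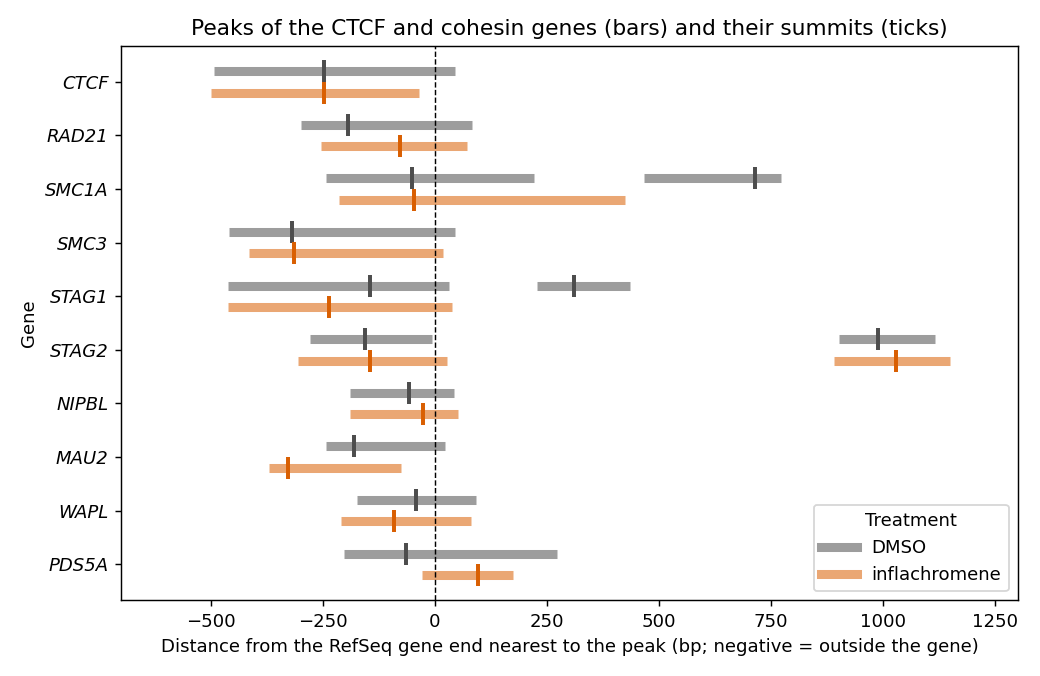
Peaks (bars) and summits (ticks) of the 10 genes in DMSO (grey) and inflachromene (orange), as bp from the nearest RefSeq gene end (dashed line), with negative values outside the gene. The main peaks straddle or adjoin the start, and SMC1A, STAG1 and STAG2 have a further peak inside the gene.

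The ring genes SMC1A, SMC3 and RAD21 had peaks of similar size in DMSO. At SMC1A, an ATPase subunit (gene on chrX:53374149-53422728), the summit held 29 fragments in DMSO (exact Poisson 95% interval 19.4 to 41.6), against 27 in inflachromene (17.8 to 39.3). The authors' fold enrichments, each a ratio of pileup to local background, were 10.4 and 9.61. At SMC3, its ATPase partner (chr10:110567695-110606048), the pileup was 32 in DMSO (21.9 to 45.2) and 22 in inflachromene (13.8 to 33.3). SMC3 thus had the lowest ratio of inflachromene to DMSO pileup of the set, 0.688 (95% interval 0.381 to 1.22, from the exact binomial interval of the split of fragments between the libraries), with fold enrichments of 10.2 and 7.16. At RAD21, the kleisin that closes the ring (chr8:116845934-116874776), the pileup was 26 in both libraries (17.0 to 38.1), with fold enrichments of 10.8 and 10.2. The intervals of both libraries overlapped at each ring gene, and the interval of each ratio includes 1.

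The SMC1A and SMC3 summits hardly moved, by 6 and 3 bp between libraries, while the RAD21 summit lay 193 bp outside the gene in DMSO and 78 bp outside it in inflachromene. SMC1A had a further DMSO peak inside the gene, with 15 fragments (8.4 to 24.7) at a summit 714 bp from the start. No inflachromene peak overlapped it, but the main inflachromene peak was wider on that side, 640 bp against 465 bp in DMSO. The SMC1A peak also lay within 1000 bp of an end of RIBC1, a coding gene, and cannot be credited to 1 gene.

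The paralogs STAG1 and STAG2, of which each cohesin ring carries 1 product, both had lower summits in inflachromene. STAG1 (chr3:136336236-136752378) had 65 fragments in DMSO (50.2 to 82.8) and 49 in inflachromene (36.3 to 64.8), a ratio of 0.754 (0.509 to 1.11). Its DMSO pileup exceeded that of 92.1% of the 9133 coding genes with a DMSO end peak. STAG2 (chrX:123960560-124102656) had 39 (27.7 to 53.3) and 29 (19.4 to 41.6), a ratio of 0.744 (0.443 to 1.23). Fold enrichments were 12.3 and 11.1 at STAG1, and 8.59 and 6.60 at STAG2. Neither ratio is separable from 1 by counting error.

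Each paralog also had a second peak inside the gene. The second DMSO peak of STAG1 held 24 fragments (15.4 to 35.7) at 310 bp from the start, and no inflachromene peak overlapped it. The second STAG2 peak held 28 fragments (18.6 to 40.5) in DMSO and 33 (22.7 to 46.3) in inflachromene, so that it was higher where the first was lower. Its summits lay 988 and 1029 bp inside the gene. RefSeq lists 3 starts for STAG2, and these summits lay 236 and 277 bp after the second of them. At 1029 bp the inflachromene peak fell just outside the 1000 bp window and counts as a peak of the gene body, while its DMSO partner fell just inside. By this rule 3 of 10 members (SMC1A, STAG1 and STAG2) had more than 1 end peak in DMSO and 0 in inflachromene. Of all genes with an end peak, 7.88% had more than 1 in DMSO and 5.35% in inflachromene.

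The loader genes had ratios of inflachromene to DMSO pileup of 1.41 at NIPBL and 0.9 (0.324 to 2.46) at MAU2. The intervals of the ratios overlapped, as did those of the pileups in each library. NIPBL, the large subunit of the loader (chr5:36876769-37066413), had 17 fragments in DMSO (9.9 to 27.2) and 24 in inflachromene (15.4 to 35.7). Its ratio of 1.41 (0.727 to 2.80) was the highest of the set and above that of 98.1% of the 7186 coding genes with paired peaks. Its fold enrichment was 5.80 in DMSO, above that of only 9.45% of genes with a DMSO end peak, and 7.53 in inflachromene. MAU2, which binds NIPBL (chr19:19320829-19358754), had 10 fragments in DMSO (4.8 to 18.4) and 9 in inflachromene (4.12 to 17.1); its fold enrichments were 6.44 and 5.12. These were the lowest pileups of the set, and only 0.635% of genes with a DMSO end peak had a lower one. The MAU2 peak also lay within 1000 bp of an end of SUGP1, a coding gene.

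The local background at MAU2 was the lowest of the set too. This value is the caller's expected number of fragments per base, which the values imply was counted over 10 kb around the summit. It was 0.708 in DMSO, 1.09 times the lowest value of that list, and 0.953 in inflachromene. At STAG1 it was 4.35 and 3.51, and at STAG2 3.66 and 3.55. The remaining members lay between 1.51 (RAD21) and 2.29 (CTCF) in DMSO. These values also scale with the inferred fragment length, which differed between the libraries. The part of local background in the difference between pileups was not tested.

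The release genes WAPL and PDS5A had lower pileups in inflachromene, as did 77.7% of all paired coding genes. Their ratios were 0.88 (0.473 to 1.63) and 0.737 (0.342 to 1.55), and both intervals include 1. WAPL (chr10:86435256-86521792) had 25 fragments in DMSO (16.2 to 36.9) and 22 in inflachromene (13.8 to 33.3); its fold enrichments were 8.32 and 7.94. PDS5A, a scaffold that helps WAPL open the ring (chr4:39822863-39977911), had 19 (11.4 to 29.7) and 14 (7.65 to 23.5), with fold enrichments of 7.11 and 6.16. The PDS5A peak was 478 bp wide in DMSO and 205 bp in inflachromene, the largest narrowing of the set, and its summit moved by 162 bp. PDS5A was also the only member whose peak lay at no other annotated gene's end.

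CTCF (chr16:67562526-67639177) had 38 fragments in DMSO (26.9 to 52.2) and 40 in inflachromene (28.6 to 54.5), a ratio of 1.05 (0.658 to 1.69). Its fold enrichment was 11.9 in DMSO and 12.3 in inflachromene, where it was the highest of the set. It exceeded that of 72.5% of genes with a DMSO end peak and 84.6% of those with an inflachromene end peak. The summit was at the same place in both libraries to within 1 bp, 248 and 247 bp before the start.

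**Figure D2:**
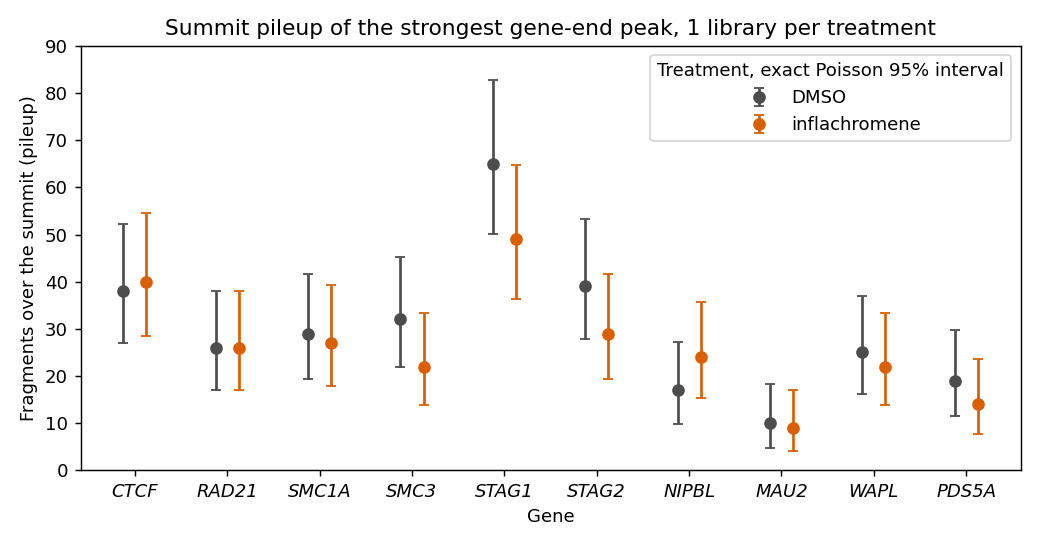
Fragments over the summit of the strongest end peak of each gene in DMSO (grey) and inflachromene (orange), with exact Poisson 95% intervals. The intervals of the 2 libraries overlap at all 10 genes, with STAG1 highest at 65 and 49 fragments and MAU2 lowest at 10 and 9.

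The second question was whether the members changed between the libraries as other bound genes did. Pileup was lower in inflachromene at 7 of 10 members, against 77.7% of all 7186 paired coding genes, and higher at 2 (CTCF and NIPBL), against 17.9%. RAD21 was equal. Over the members the ratio of inflachromene to DMSO pileup had a median of 0.89, against 0.821 over all paired genes (quartiles 0.706 and 0.96). Summed over the members, 300 fragments in DMSO stood against 262 in inflachromene, a ratio of 0.873 (0.737 to 1.03). The inflachromene library held an inferred 0.964 times as many fragments as DMSO. Its inferred fragment length was longer, 165.7 bp against 152.35 bp, and its lowest background per base was higher, 0.683 against 0.651. The part of fragment length in the pileup ratios was not tested. The intervals of all 10 single ratios include both 1 and the median of all genes. Differences of the size seen were therefore not detectable gene by gene at this depth. Each treatment was represented by a single library, so these values compare the libraries, no test was made, and intervals cover counting error only.

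**Figure D3:**
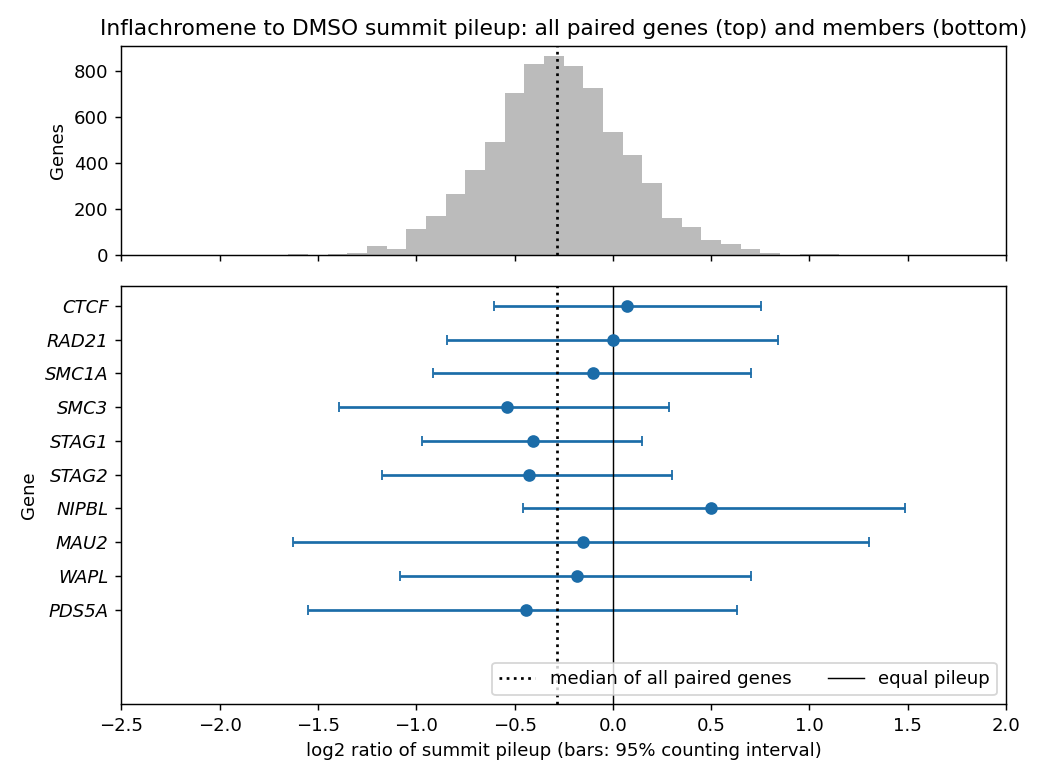
Top, number of paired coding genes by log2 ratio of inflachromene to DMSO summit pileup; bottom, the same ratio for each of the 10 genes with its 95% counting interval. The dotted line is the median of all paired genes (a ratio of 0.821) and every interval crosses both it and equality.

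Within each list the members lay on both sides of the median strength of genes with an end peak. Fold enrichment was above the median of genes with an end peak (9.37 in DMSO, 8.55 in inflachromene) at 5 members in DMSO and 4 in inflachromene. The members' medians were 9.39 and 7.73. Median pileups were 27.5 and 25 fragments over the members, against 28 and 25 over all genes with an end peak. Members above the DMSO median were CTCF, STAG1, RAD21, SMC1A and SMC3. Paired peaks were wider in inflachromene at 6 of 10 members, against 30.4% of all paired genes. The median width was nevertheless smaller in inflachromene over the members, 329.5 bp against 424 bp in DMSO, as it was over all paired genes, 347.5 bp against 398 bp.

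**Figure D4:**
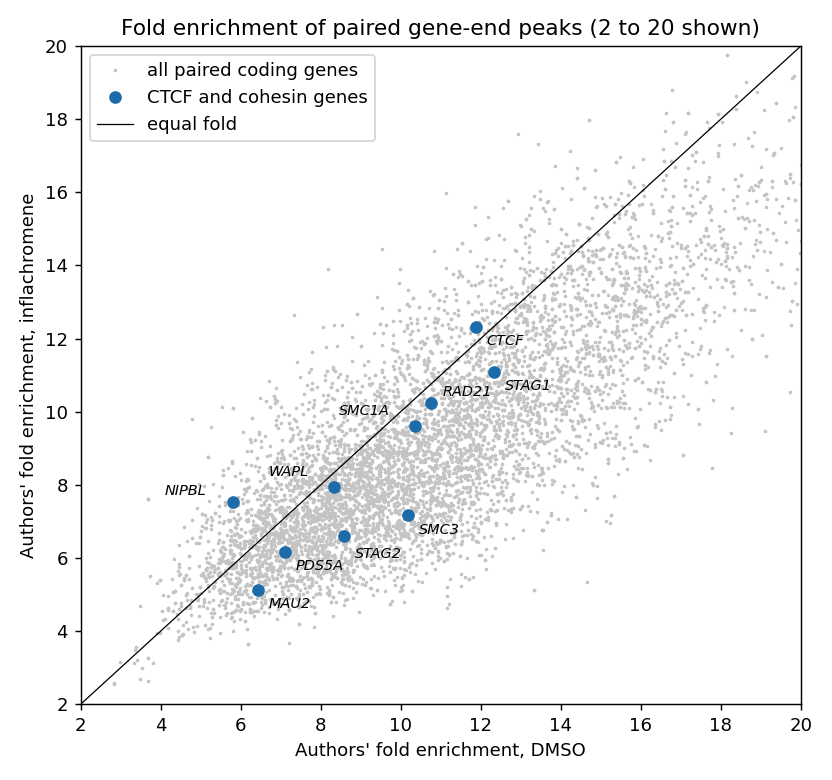
The authors' fold enrichment in inflachromene against DMSO for 7186 coding genes with paired end peaks (grey; 80 lie outside the axes) and the 10 members (blue), with the line of equal fold. CTCF and NIPBL lie above the line, the other 8 below it.

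Fragments in the surrounding 10 kb gave a second count at each gene. The background values correspond to whole numbers of fragment ends in that window. RAD21 had 198 ends in both libraries, and NIPBL had 276 in DMSO and 280 in inflachromene. CTCF had 300 and 281, SMC1A 249 and 231, SMC3 294 and 267, and STAG2 480 and 428. The lowest ratios were at PDS5A, with 238 and 173 ends (0.727), STAG1, with 571 and 424 (0.743), and WAPL, with 279 and 229 (0.821). MAU2 was the highest, with 93 and 115 (1.24). The median ratio was 0.918 over the members and 0.872 over all paired genes. The window contains the peak itself, so the values are not independent of the pileup.

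Most member peaks lay near an end of a further annotated gene. At 9 of 10 members the strongest DMSO summit lay within 1000 bp of an end of another RefSeq gene of any kind, against 49.8% of the 9133 genes with a DMSO end peak. At 2 members (SMC1A and MAU2) such a neighbour was a coding gene, against 31.6%. The noncoding neighbours were CTCF-DT, RAD21-AS1 with MIR3610, LOC105378483 at SMC3, STAG1-DT, STAG2-AS1, NIPBL-DT and WAPL-DT. Peak lists carry no strand, so a peak cannot be credited to either transcript.

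Peaks inside the gene bodies were few. Beyond 1000 bp from both ends their bodies add up to 1.2 Mb, with 0 DMSO peaks and 1 inflachromene peak, the STAG2 peak described above. At the rate of all coding genes the same length would hold 3.88 DMSO and 2.46 inflachromene peaks. The member counts turn on the window: at 500 bp the SMC1A and STAG2 peaks described above made 2 in DMSO and 1 in inflachromene, and at 2500 bp there were 0 in both. Of all coding genes long enough to have such a body, 16.0% had a peak there in DMSO and 11.2% in inflachromene. Genes as long as the members (28843 to 416143 bp) had 3.38 and 2.11 peaks per Mb, and 23.4% and 16.3% of these 8610 genes had a body peak. STAG1, the longest member, had none over its body in either library.

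Further genes of the pathway were taken from lists. Beside their counts stand the shares of all coding genes with an end peak. These were 45.7% in DMSO, 38.0% in inflachromene and 36.3% in both. Of 14 further regulators of mitotic cohesin, 7 had an end peak in both libraries, 3 in DMSO alone (ESPL1, PTTG1 and DSCC1) and 4 in neither (ESCO2, HDAC8, PLK1 and CHTF8). ESPL1, which encodes separase, the protease that cuts RAD21, had 16 fragments in DMSO, PTTG1, encoding its inhibitor securin, had 15, and DSCC1, a subunit gene of a clamp loader, had 11. SGO1, encoding shugoshin, which protects centromeric cohesin, held 63 DMSO and 58 inflachromene fragments. CHTF18, another clamp loader subunit gene, had 47 and 25, and its peak also lay at an end of RPUSD1. PDS5B, the paralog of PDS5A, had 33 and 28. The median ratio of the 6 paired genes was 0.885.

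Of 9 genes for proteins reported at CTCF sites, 8 had an end peak in both libraries, against 36.3% of all coding genes. PATZ1 had one in neither. The summit at CHD8, which encodes a chromatin remodeller, held 133 DMSO and 97 inflachromene fragments, and that at ZNF143, a zinc finger gene, 116 and 93. The median ratio over these 8 was 0.755, with YY1 alone higher in inflachromene (34 against 32). A further list of 7 held meiotic cohesin genes, associated factors and CTCFL, the germline paralog of CTCF. Of these, 3 had an end peak in both libraries (RAD21L1, STAG3 and SGO2), against 36.3% of all coding genes. CTCFL, SMC1B, REC8 and MEIKIN had one in neither. RAD21L1 had 52 and 37 fragments and SGO2 32 and 24; the STAG3 peak, also at an end of GPC2, had 26 and 27.

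Of 14 condensin and SMC5/6 genes, which encode the other SMC rings of human cells, 7 had an end peak in both libraries. SMC4, SMC5 and NSMCE2 had one in DMSO alone, with 23, 23 and 19 fragments, and NCAPH in inflachromene alone, with 17; SMC2, NCAPD3 and NSMCE3 had none. The median ratio of the 6 paired genes was 0.776, with 5 lower in inflachromene, 0 higher and 1 equal. NCAPH2 had 40 and 37 fragments and NCAPG2 47 and 28. The peaks at SMC4 and NSMCE2 also lay at ends of IFT80 and WASHC5. No share of these lists was tested against another or against that of all coding genes, 36.3% in both libraries.

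Marker genes of cell types were also looked up. The precipitated protein is not named, so these peaks cannot decide the cell type. Of 6 markers listed for PANC-1, KRT8, KRT18, VIM and SOX9 had an end peak in both libraries, against 36.3% of all coding genes. KRT8 and KRT18 share a peak. KRT19 had one in DMSO alone and KRT7 in neither. None of 4 acinar, 3 islet, 4 immune or 4 endothelial and fibroblast markers had an end peak in either library. On the assembled chromosomes the lists held 15186 peaks in DMSO and 10836 in inflachromene, each with a median pileup of 23 fragments.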

How the data were processed

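Each sample was 1 deposited narrowPeak list. Per the submitters' processing notes, the authors used MACS2 and deepTools 3.5.6 with hg38; the aligner, the handling of duplicates, any control library and any pooling are not stated in the sources used here. Per the file layout, the authors' values are an integer score (not used further), a fold enrichment (a ratio at the summit), a −log10 p-value and a −log10 q-value. The summit offset is a deposited column of other positions in bases.

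The pileup was computed from the deposited fold enrichment, taken as (pileup + 1)/(background + 1), and the deposited −log10 p, taken as a Poisson tail. A whole pileup matched within 0.001 at all 15186 and 10836 peaks on chromosomes 1 to 22 and X; 12 and 4 had a further match within that tolerance. Even steps of the background implied fragment lengths of 152.35 and 165.7 bp and no separate control. The lowest backgrounds, 0.651 and 0.683, gave the ratio of fragment numbers. These are inferences from the values.

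Gene ends came from RefSeq (GRCh38.p14, the coordinates of hg38), in windows of 1000 bp. The strongest DMSO end peak was paired with the strongest inflachromene peak overlapping it by at least 1 bp; a peak at several genes counts for each. Named genes were all members and, of each other list, genes with a peak in 1 library alone and the 2 with the highest mean pileup; PDS5B, YY1, STAG3 and the genes with a peak in neither library were named after their values were seen. The members and lists were chosen with earlier results of these data known. Pileups are fragments without molecular identifiers, so all intervals cover counting error only. Python 3.11.15 and scipy 1.17.1 were used. Alternatives in window, threshold, list length, pairing and scale were computed.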

Additional observations from a re-analysis of the deposited data

How the results depend on the processing

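The number of members with an end peak in both libraries was 10 with windows of 500 bp (33.1% of all genes) and 2500 bp (39.7%). It was also 10 with fold enrichment of at least 5 (34.9%) and when an overlapping peak's summit also counted (36.6%). It was 9 with −log10 q of at least 5, where MAU2 was lost in inflachromene (36.3% of all genes became 35.5%). It was 8 with both lists at the shorter length (33.4% of all genes), where the DMSO peaks of NIPBL and MAU2 were lost. The median ratio of 0.89 ranged from 0.873 (pileup minus local background) to 0.923 (divided by the ratio of fragment numbers), and was 0.913 for fold enrichment. Over all paired genes the medians were 0.810, 0.851 and 0.858 in the same order, against 0.821 without rescaling. With a reciprocal overlap of 50% of each peak, PDS5A dropped out and the members' median was 0.9, against 0.822 over all paired genes. Chosen after the data were seen, leaving out MAU2 gave 0.88, and the highest inflachromene peak of each window gave 0.89. RAD21, equal in pileup, had a ratio of 1.04 per fragment number and 0.95 in fold enrichment. In fold enrichment STAG1 had 0.898 against 0.754 in pileup, and MAU2 had 0.795 against 0.9. All 30 member ratios of these 3 rescalings stayed within their counting intervals. Those intervals are wide (0.324 to 2.46 at MAU2), so this says little about stability. With windows of 500 and 2500 bp, also chosen after the data were seen, peaks inside member bodies numbered 2 and 0 in DMSO (0 at 1000 bp) and 1 and 0 in inflachromene (1 at 1000 bp). No paired analysis was possible because each treatment had 1 sample. Pileups of 9 to 65 fragments limit the precision.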
